A study of Arabidopsis thaliana with 12 samples.

Results

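The ATG8 genes of Arabidopsis thaliana were followed across 12 single-colour oligonucleotide arrays. Members were the probe sets annotated to 1 gene whose symbol begins with ATG8. The rule found 7 genes with 1 probe set each, ATG8B, ATG8C, ATG8D, ATG8E, ATG8F, ATG8G and ATG8H, among 13513 probe sets with 1 gene named. The annotation holds 2 further genes of the family under older symbols, APG8A (synonym ATG8A) and APG8H (synonym ATG8I). They are given beside the members, so that 9 genes of the family were measured in all.

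Total RNA of unshaded, fully developed rosette leaves (developmental stage 3.7) was labelled with biotin and put on 1 array per sample. The groups were ape2 in condition H, ape2 in condition L, Ws-2 in condition H and Ws-2 in condition L, with 3 arrays each. The ape2 line carries a T-DNA insertion in the background of Ws-2, the accession that serves as wild type. Its gene of interest is TPT, the translocator that exports triose phosphate from the chloroplast in exchange for phosphate. H and L are the submitters' names, whose meaning the titles do not give. A single insertion line was compared, and the labels do not say how many plants went into an array. The annotation pairs no probe set with TPT, so the loss of its transcript was not checked.

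ATG8 is a ubiquitin-like protein of the autophagy pathway, by which plant cells enclose cytoplasm in a double membrane and deliver it to the vacuole for breakdown. The protease ATG4 trims ATG8, and the E1-like ATG7 and the E2-like ATG3 then attach it to the lipid phosphatidylethanolamine on the growing membrane. There it takes part in closing the autophagosome and binds receptors that carry cargo. In leaves, autophagy is known for recycling chloroplast protein and other cell material when carbon or nitrogen is short and during senescence. ATG8A to ATG8G are made with residues beyond the glycine at which ATG4 cuts, while ATG8H and ATG8I end at that glycine.

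The values are linear signals of the probe sets, scaled so that the 2% trimmed mean of an array is 100. A change shared by most transcripts of an array would therefore not show. Array medians ranged from 36.5 to 40.5, and 63.9 to 67.8% of probe sets reached a signal of 20. The ratio of the GAPDH control probe sets at the 3′ and 5′ ends of the transcript, a measure of RNA quality, was 1.73 to 1.83 in ape2 H, 1.69 to 2.09 in ape2 L, 1.64 to 2.15 in Ws-2 H and 1.87 to 2.29 in Ws-2 L. The same ratio for actin was higher on every array, at 3.20 to 4.06 in ape2 H, 3.64 to 4.49 in ape2 L, 3.30 to 4.61 in Ws-2 H and 4.10 to 4.34 in Ws-2 L, and the part of this 3′ bias in the results was not tested. Mature leaf markers were bright on every array, with signals of RCA, the activase of Rubisco, between 3646 and 4892. The annotation names probe sets for 4 of 7 listed leaf markers (RCA, PRK, SBPASE and HPR). Their summed signal was 13524 to 14746 in ape2 L against 14759 to 17612 in Ws-2 L, without overlap, and 13947 to 15993 in ape2 H against 14284 to 16755 in Ws-2 H. None of the 4 passed the test between genotypes, at adjusted p-values of 0.147 to 0.285 in L and 0.872 to 0.954 in H, and their part in the results for ATG8 genes was not tested. EXPA7, a root hair marker, had signals of 12.4 to 27.0, and no marker list had a member at 0. In whole leaves, fewer cells of a type and less RNA per cell cannot be told apart.

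ATG8E (AT2G45170) showed the largest change of the family between genotypes. In condition H its signal was 85.0, 109 and 112 on the ape2 arrays, against 17.5, 19.0 and 19.5 on the Ws-2 arrays. In condition L it was 89.3, 95.6 and 102 in ape2, against 31.2, 33.2 and 37.3 in Ws-2. Every ape2 array of either condition was above every Ws-2 array, and the lowest ape2 signal was 85.0 against a highest Ws-2 signal of 37.3. The mean was 101.8 ± 14.6 in ape2 H, 95.8 ± 6.54 in ape2 L, 18.6 ± 1.04 in Ws-2 H and 33.9 ± 3.11 in Ws-2 L (SD, n = 3 arrays each). The ratio of the means, ape2 over Ws-2, was 5.46 in H and 2.83 in L.

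Changes were tested on the scale log2(signal + 10) with limma over all 16124 probe sets that passed a filter on dim signals. A gene is called where the p-value, adjusted by the Benjamini-Hochberg method over those probe sets, is under 0.05. All 9 genes of the family passed the filter, which asked that 3 or more of the 12 arrays reach a signal of 20. ATG8E reached 20 on 9 arrays and missed it on all 3 Ws-2 H arrays, and ATG8H reached it on 11.

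ATG8E was higher in ape2 by 1.96 ± 0.12 (SE) on the log2 scale in H, with an adjusted p of 4.65e-08 in limma. It was higher by 1.27 ± 0.12 in L, with an adjusted p of 6.35e-06 in limma. Among the 16124 probe sets its change ranked 13th from the highest in H and 34th in L. Because the Ws-2 signals are dim, the size rests on the offset added before the logarithm. With an offset of 1 in place of 10 the change was 2.38 in H and 1.47 in L, and with 32 it was 1.40 in H and 0.96 in L.

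ATG8F (AT4G16520) was the other gene called in both conditions, and its signal was well above the filter on all arrays. In condition H it read 727, 749 and 774 in ape2, against 552, 406 and 456 in Ws-2. In condition L it read 651, 703 and 598 in ape2, against 484, 456 and 484 in Ws-2. The genotypes did not overlap in either condition, and the lowest ape2 value of both conditions, 598, lay above the highest Ws-2 value, 552. The mean was 750.2 ± 23.4 in ape2 H, 650.5 ± 52.2 in ape2 L, 471 ± 74.0 in Ws-2 H and 474 ± 16.3 in Ws-2 L (SD, n = 3 each), which gives ratios of 1.59 in H and 1.37 in L. On the log2 scale ATG8F was higher in ape2 by 0.67 ± 0.09 in H (limma adjusted p = 1.97e-04) and by 0.44 ± 0.09 in L (limma adjusted p = 0.00638).

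ATG8H (AT3G06420), one of the short forms that end at the glycine, had low signals of 19.1 to 39.4 over the 12 arrays. Its signal in H was 37.4, 39.4 and 30.1 in ape2, against 22.9, 24.4 and 19.1 in Ws-2. In L it was 32.3, 38.0 and 31.9 in ape2, against 31.7, 22.1 and 20.2 in Ws-2. The genotypes did not overlap in either condition, although in L the highest Ws-2 array came within a fraction of a unit of the lowest ape2 array. The means were 35.6 ± 4.91 in ape2 H, 34.1 ± 3.45 in ape2 L, 22.1 ± 2.76 in Ws-2 H and 24.7 ± 6.15 in Ws-2 L (SD, n = 3 each). ATG8H was higher in ape2 by 0.50 ± 0.15 on the log2 scale in H, just past the threshold at an adjusted p of 0.048 in limma. In L the change of 0.36 ± 0.15 did not pass, at an adjusted p of 0.174. The call in H was lost without any one of 8 arrays (Ws-2 H 1, 2 or 3, ape2 H 1 or 2, ape2 L 1 or 3, Ws-2 L 2), with changes from 0.43 to 0.59 over all single arrays left out. With an offset of 1 the change in H was 0.66 and with 32 it was 0.32, both still called.

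**Figure D1:**
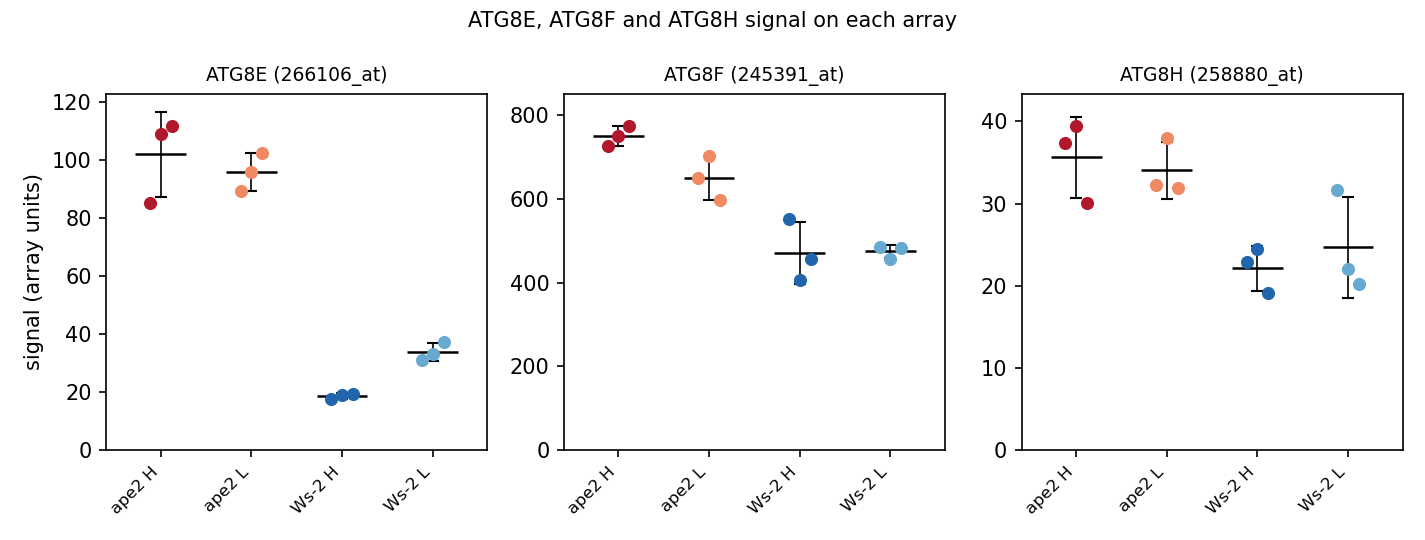
Signal of ATG8E, ATG8F and ATG8H on each of the 12 arrays, in columns for ape2 H, ape2 L, Ws-2 H and Ws-2 L, with a line at the mean and error bars of 1 SD. The ATG8E points of Ws-2 H, between 17.5 and 19.5, are the lowest, and the ape2 points of both conditions share a range of 85.0 to 112.

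The second short form, APG8H (AT3G15580, ATG8I), was also called in H. It read 487, 649 and 497 in ape2 H, against 447, 373 and 426 in Ws-2 H. It read 435, 496 and 401 in ape2 L, against 418, 400 and 423 in Ws-2 L. The genotypes separated in H but overlapped in L. Its change was 0.38 ± 0.11 on the log2 scale in H (limma adjusted p = 0.0348) and 0.09 ± 0.11 in L (limma adjusted p = 0.666). A single array, ape2 H 2, held the highest signal, and without it the change in H was 0.24 with an adjusted p of 0.155. The call was also lost without Ws-2 H 2 (adjusted p = 0.148) and without Ws-2 H 3 (adjusted p = 0.0772).

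The remaining 5 genes did not pass the test between genotypes in either condition. ATG8D (AT2G05630) had signals of 101, 109 and 97.6 in ape2 H, against 95.0, 76.6 and 77.0 in Ws-2 H, and ATG8C (AT1G62040) had 155, 165 and 153 in ape2 H, against 133, 117 and 146 in Ws-2 H. Neither gene overlapped between genotypes in H, and their changes were 0.28 ± 0.10 (limma adjusted p = 0.0847) for ATG8D and 0.25 ± 0.09 (limma adjusted p = 0.121) for ATG8C. In L both overlapped, with changes of 0.03 for ATG8D and 0.04 for ATG8C. ATG8D passed without the array Ws-2 H 1, at 0.37 and an adjusted p of 0.0306.

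ATG8G (AT3G60640) had signals of 59.8, 68.7 and 54.6 in ape2 L, against 50.7, 52.6 and 49.8 in Ws-2 L. Its groups did not overlap in L but did in H, and its changes were 0.21 ± 0.12 in L (limma adjusted p = 0.308) and 0.19 ± 0.12 in H (limma adjusted p = 0.391). ATG8B (AT4G04620) lay between 50.4 and 70.8 in ape2 and between 49.0 and 64.4 in Ws-2 over both conditions. Its change was 0.00 ± 0.13 in H and 0.10 ± 0.13 in L, the smallest of the family in H. APG8A (AT4G21980, ATG8A) lay between 136 and 179 in ape2 and between 116 and 163 in Ws-2, with overlap in both conditions and changes of 0.21 ± 0.12 in H and 0.02 ± 0.12 in L.

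**Figure D2:**
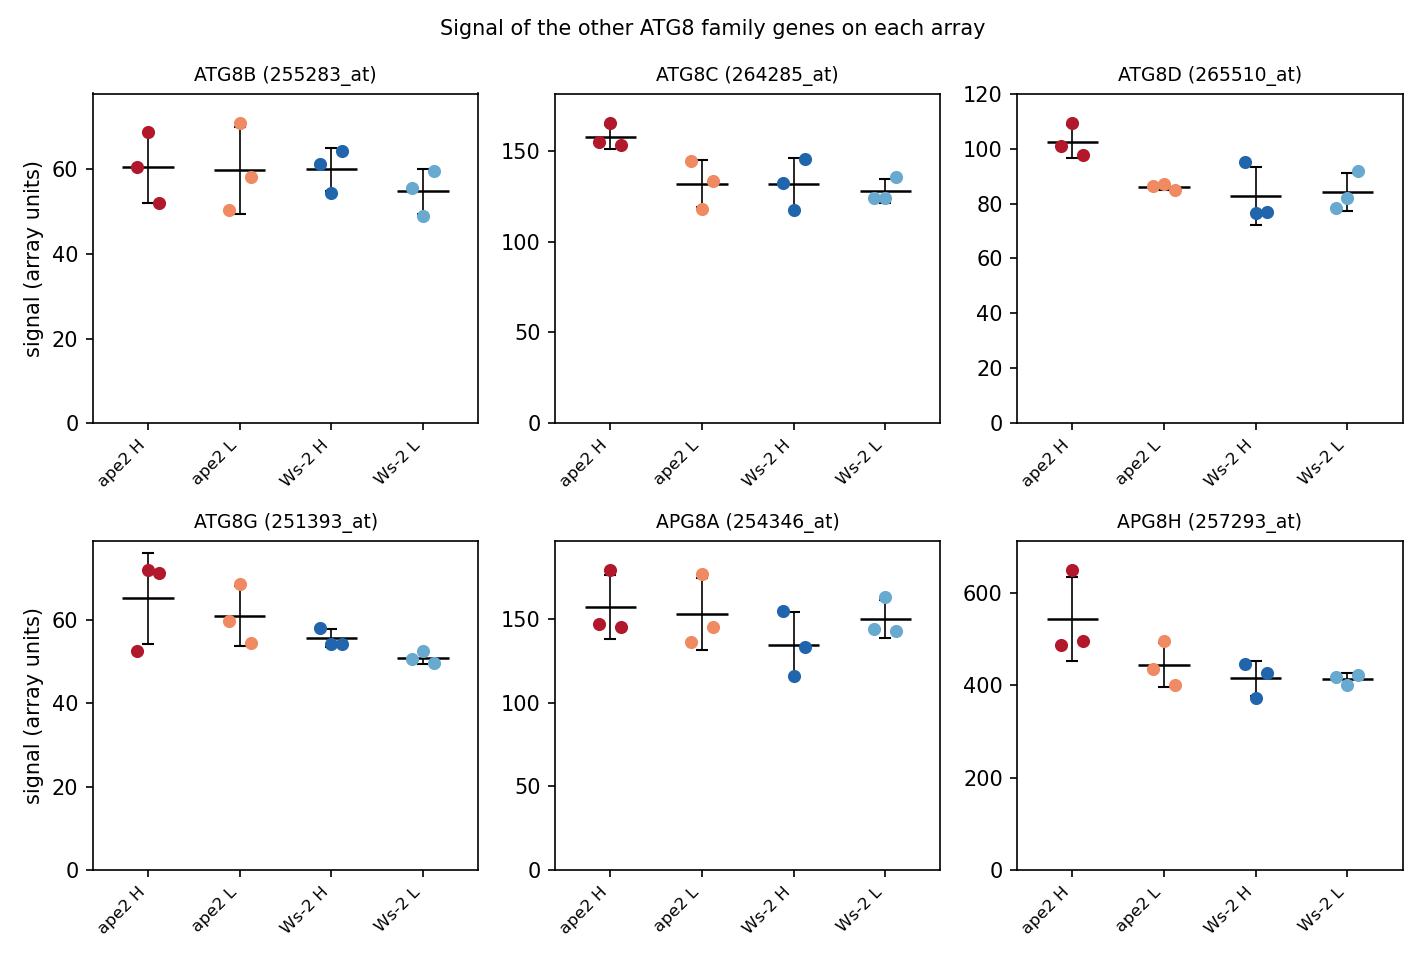
Signal of the other 6 genes of the family on each array, in columns for ape2 H, ape2 L, Ws-2 H and Ws-2 L, with a line at the mean and error bars of 1 SD. APG8H, ATG8C and ATG8D separate the genotypes in H, and ATG8B overlaps in both conditions.

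By the rule, 3 of 7 ATG8 genes were called higher in ape2 in H (ATG8E, ATG8F and ATG8H) and 2 of 7 in L (ATG8E and ATG8F), and no gene was called lower. Over all probe sets tested, 4.97% were called higher and 5.53% lower in H, and 4.98% higher and 4.77% lower in L. With both APG8 genes the counts were 4 of 9 in H and 2 of 9 in L. The change was positive for all 9 genes in both conditions, beside 47.5% of all probe sets tested in H and 51.4% in L. Its median over the 7 members was 0.28 in H and 0.21 in L. Over the 9 genes the median was 0.28 in H and 0.10 in L, and over all probe sets tested -0.01 in H and 0.01 in L. Groups that did not overlap, with ape2 above Ws-2, were seen for 5 of 7 members in H and 4 of 7 in L, beside 12.7% of all probe sets in H and 13.4% in L. Both comparisons are of arrays that share no sample, but the fit shares 1 estimate of the spread, and the genes were measured on the same arrays, so their changes are not independent of each other. The count over 9 genes in H ranged from 2 to 5 over the alternatives tried.

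**Figure D3:**
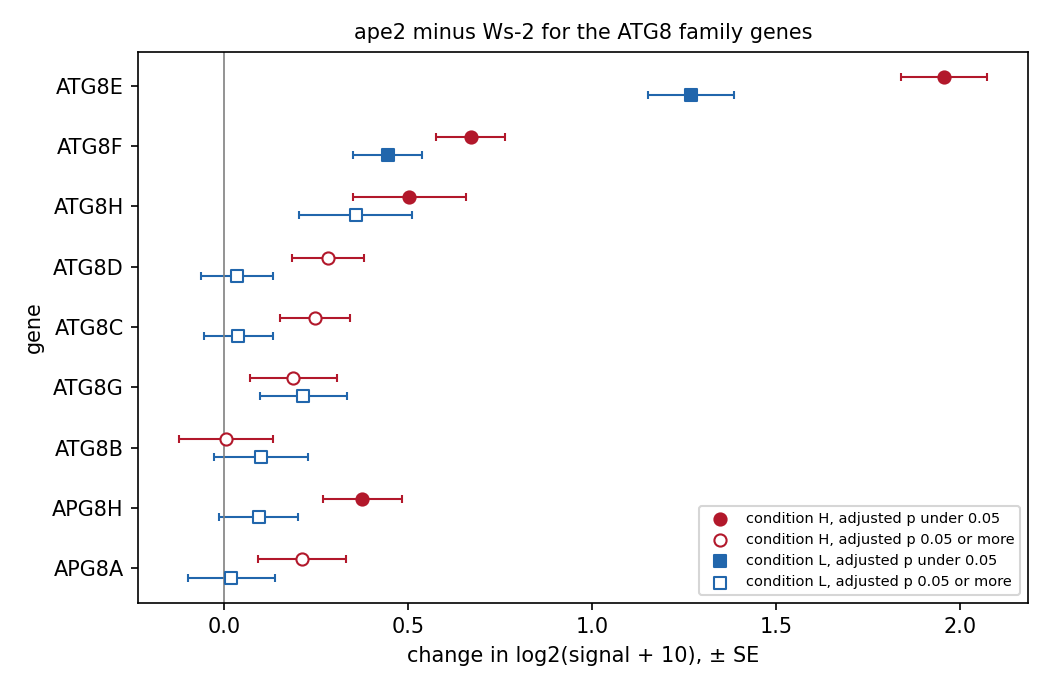
Change between genotypes, ape2 minus Ws-2, in log2(signal + 10) with its standard error for the 9 genes of the family in conditions H and L. Filled symbols mark an adjusted p under 0.05; ATG8E stands at 1.96 in H and 1.27 in L, and no other gene exceeds 0.67.

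Whether ATG8E changed by more than its relatives was tested on differences within an array. The difference between ATG8E and ATG8F on an array was larger in ape2 than in Ws-2 by 1.06 on the log2 scale, as a mean over both conditions. For ATG8E and ATG8H it was larger by 1.18. With an offset of 1 the excess over ATG8F was 1.36 and with 32 it was 0.64. Each pair had p = 0.005 in an exact two-sided permutation test with genotype labels permuted within a condition, the smallest p its 400 arrangements allow, and an adjusted p of 0.0075 over 3 pairs. All 6 ape2 arrays lay above every Ws-2 array of their condition for both pairs. Both pairs share the ATG8E values, and members and contrasts were chosen with earlier results of these data known. Their p-values are therefore not separate support beside the separation of the genotypes by ATG8E. ATG8F and ATG8H differed in their change by 0.13 (p = 0.3 in the same exact test, adjusted p = 0.3), which does not show that they changed alike, and with an offset of 32 that difference was 0.26 with an adjusted p of 0.01.

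Against the other 6 genes the excess of ATG8E was 1.38 (APG8H) to 1.56 (ATG8B). Each of these 6 pairs, added after the values were seen, had p = 0.005 in the exact permutation test, an adjusted p of 0.005 over the 6 pairs and all 6 ape2 arrays above every Ws-2 array of the condition. The 6 pairs share the same ATG8E values, whose separation of the genotypes was already known, so these p-values are not separate support.

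Between conditions, ATG8E was the only gene of the family called. In Ws-2 its signals were 17.5, 19.0 and 19.5 in H, against 31.2, 33.2 and 37.3 in L, and the conditions did not overlap. ATG8E was lower in H by a log2 change of -0.61 ± 0.12 (limma adjusted p = 0.0078), with a ratio of the means, H over L, of 0.55. One member of 7 was therefore called lower in H in Ws-2, beside 1.91% of all probe sets tested. With an offset of 1 the change was -0.83 and with 32 it was -0.38. With only the Ws-2 arrays in the fit it had an adjusted p of 0.0528. ATG8G was the other member without overlap between conditions in Ws-2, in the opposite direction. It read 58.2, 54.4 and 54.4 in H, against 50.7, 52.6 and 49.8 in L (0.11, limma adjusted p = 0.784). Of all probe sets tested, 10.1% were without overlap and lower in H in Ws-2, and 9.61% were without overlap and higher.

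In ape2 none of the 9 genes was called between H and L in limma, beside 4.01% of all probe sets, and 4 of the 9 had an unadjusted p under 0.05, beside 17.8% of all probe sets. ATG8E overlapped between conditions there, with a change of 0.07 ± 0.12 (limma adjusted p = 0.818). The 4 genes were ATG8C (0.24 ± 0.09, adjusted p = 0.180), ATG8D (0.23 ± 0.10, adjusted p = 0.238), ATG8F (0.21 ± 0.09, adjusted p = 0.265) and APG8H (0.28 ± 0.11, adjusted p = 0.170). ATG8C, ATG8D and ATG8F did not overlap between H and L in ape2, beside 9.04% of all probe sets that were without overlap and higher in H. In Ws-2 the same 4 genes had changes of 0.04, -0.02, -0.02 and 0.00.

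**Figure D4:**
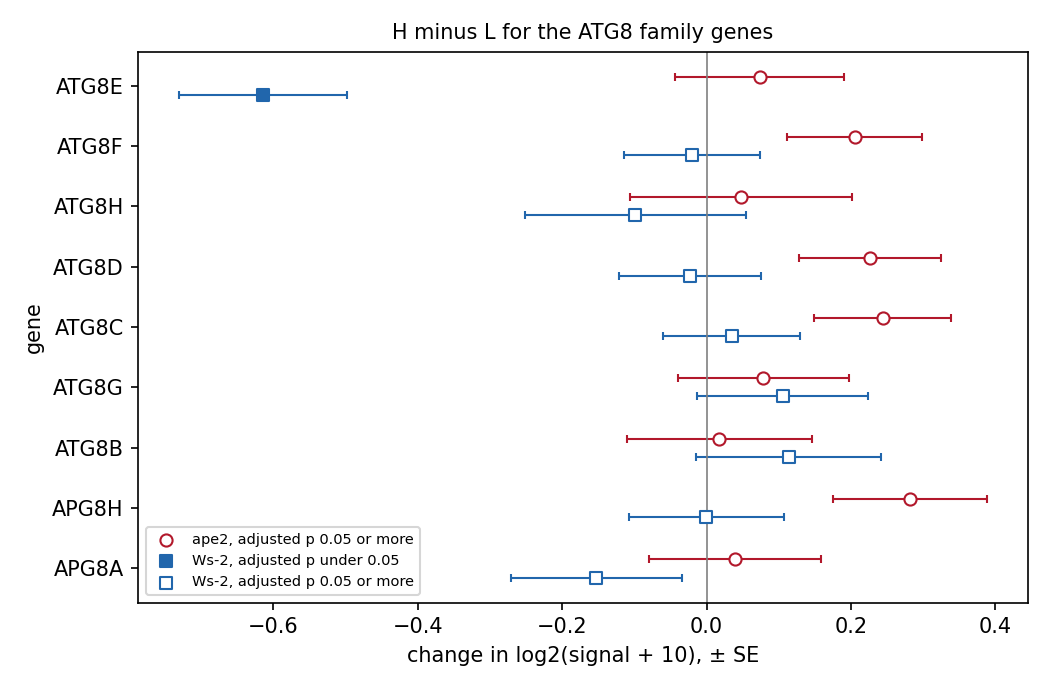
Change between conditions, H minus L, in log2(signal + 10) with its standard error for the 9 genes in ape2 and in Ws-2. The filled symbol, ATG8E in Ws-2 at -0.61, is the one change with an adjusted p under 0.05.

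The order of the group means for ATG8E was ape2 H, ape2 L, Ws-2 L and Ws-2 H. The first pair did not differ beyond the spread between arrays, and each other step passed the test. The genotype change of ATG8E was larger in H than in L by 0.69 ± 0.16 on the log2 scale. That interaction had an unadjusted p of 7.76e-04 in limma and an adjusted p of 0.221, so a different change in H and in L was not called. Its size was 0.91 with an offset of 1 and 0.44 with 32. No gene of the family was called in the interaction, which held 0.0186% of all probe sets, and ATG8E alone of the 9 had an unadjusted p under 0.05 there, beside 7.66% of all probe sets. For ATG8F the order was ape2 H, ape2 L, Ws-2 L and Ws-2 H, and only the step from ape2 L to Ws-2 L passed the test.

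The genes of the family varied together to unequal degrees. Over the 12 arrays ATG8E and ATG8F had r = 0.88, ATG8E and ATG8H 0.80, and ATG8F and ATG8H 0.79. For deviations from the group means, which leave out the differences between groups, the same pairs had r of -0.10, -0.46 and 0.08. APG8A and APG8H had r = 0.69 over the arrays and 0.79 for the deviations. These values describe 12 arrays in 4 groups and share each array's RNA and scaling.

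Of the 9 genes, 7 were highest on the array ape2 H 2 among the ape2 H arrays, and 7 were highest on ape2 L 2 among the ape2 L arrays. ATG8E was highest on neither. How many of all probe sets were highest on these arrays was not counted, so the counts are not read as a trait of the family. The leading component of the variation within groups held 25.5% of it, and its sign is arbitrary and was set so that ape2 H 2 is positive. At the positive end stood ape2 L 2 with a score of 20.4, ape2 H 2 with 17.0 and Ws-2 H 1 with 12.4. At the negative end stood ape2 L 1 with -12.4, Ws-2 H 2 with -11.6 and ape2 H 3 with -10.8. Only the 3 arrays of the positive end were left out together. Without them, ATG8E and ATG8F kept their calls between genotypes in both conditions. ATG8H in H then had a change of 0.46 with an adjusted p of 0.209 in limma. The part of that component in the results for the other genes was not tested further.

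Among 9018 tested probe sets with 1 gene named, the genes whose pattern over the 12 arrays was most like that of ATG8E were AT1G55960 (r = 0.99), AT1G30260 (0.99), AT2G38820 (0.98), AT3G23880 (0.98) and AT3G47160 (0.98). For deviations from the group means their r with ATG8E was between -0.10 and 0.53, so the likeness lies mainly in the differences between groups. AT1G55960 came closest in size as well, with genotype changes of 1.81 in H and 1.34 in L. The gene most like ATG8F was AT1G01490 (r = 0.97), followed by AT4G19860 (0.96), AT5G25630 (0.96), AT3G13062 (0.95) and AT3G26510 (0.95). For deviations from the group means the r of these genes with ATG8F was between 0.64 and 0.92. Those most like ATG8H were AT2G05160 (0.95), AT2G42690 (0.93), AT1G21050 (0.92), AT2G35680 (0.91) and AT1G51160 (0.91), with r of deviations between 0.65 and 0.85. AT1G51160 was not called between genotypes (limma adjusted p = 0.298 in H and 0.513 in L). For the other members the highest r was 0.91 (ATG8D with AT5G38895), 0.89 (ATG8G with AT1G80180), 0.88 (ATG8B with AT1G18210) and 0.87 (ATG8C with AT5G07870). Their r of deviations was 0.77, 0.87, 0.92 and 0.75 in that order. These likenesses therefore hold more variation between arrays of the same group than those of ATG8E. All were picked by the highest r over the same 12 arrays. A member with small differences between groups can then be matched closely only through such variation.

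**Figure D5:**
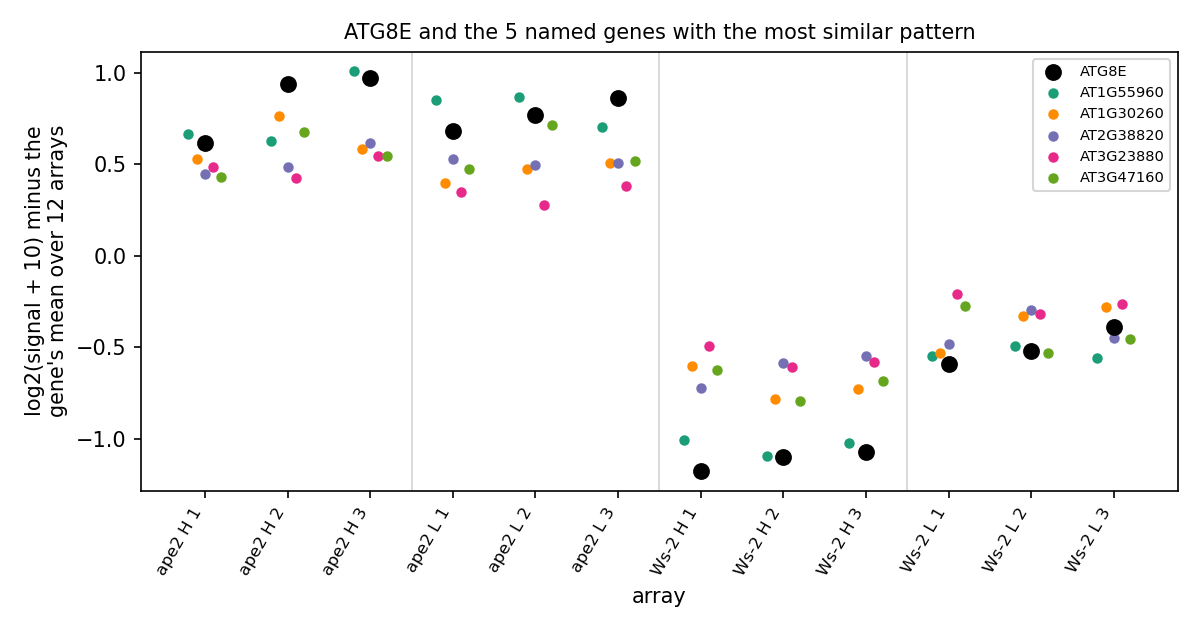
Deviation of log2(signal + 10) from a gene's mean over the 12 arrays, for ATG8E (black) and the 5 genes most like it, by array. All 6 genes lie above 0 on the ape2 arrays and below 0 on the Ws-2 arrays, and the Ws-2 H points of each gene lie below its Ws-2 L points.

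Few other genes of the autophagy machinery were measured. Of 30 listed genes, which act in starting the membrane, conjugating ATG8 and recycling ATG9, 9 had a probe set named, 10 probe sets in all. None was called in limma in any of the 5 contrasts, and the number with an unadjusted p under 0.05 was 2 between genotypes in H, 0 in L, 1 between conditions in ape2, 0 in Ws-2 and 0 in the interaction. Over all probe sets 10.5% were called between genotypes in H, 9.75% in L and 2.93% between conditions in Ws-2. Those with an unadjusted p under 0.05 made up 22.8% in H, 22.8% in L, 17.8% between conditions in ape2 and 13.7% in Ws-2, so with 10 probe sets these counts do not set the machinery apart from other genes. ATG3, the E2-like enzyme that attaches ATG8 to the lipid, had signals of 119, 125 and 127 in ape2 H, against 117, 99.4 and 105 in Ws-2 H. These did not overlap, and the change was 0.19 with an unadjusted p of 0.048 and an adjusted p of 0.214 in limma. ATG101, a subunit of the ATG1 kinase complex, changed by 0.24 in H and 0.20 in L without passing (limma adjusted p = 0.463 in H and 0.538 in L).

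The other 7 listed genes are given by locus code, since neither annotation table names them. In H the changes of AT1G49180, AT3G53930, AT3G59950 and AT3G61960 were 0.40, 0.29, 0.15 and 0.09, and those of AT3G18770 and AT5G50230 were -0.01 and -0.07. The change of AT1G49180 was the largest of the 10 probe sets in H, and its genotypes did not overlap there. It had an unadjusted p of 0.0238 and an adjusted p of 0.138 in limma. Of the 10 probe sets, 2 were without overlap in H (ATG3 and AT1G49180) and 2 in L (AT3G53930 and a probe set of AT2G37840), all higher in ape2. Of all probe sets tested, 12.7% in H and 13.4% in L were without overlap and higher in ape2. The pair of probe sets of AT2G37840 disagreed in sign in H, at 0.13 and -0.06. In L the 10 probe sets lay between -0.05 and 0.26, with a median of 0.18, against a median of 0.14 in H. Over all probe sets tested the median was 0.01 in L and -0.01 in H. The change was positive for 8 of the 10 in L and 7 of the 10 in H. Of all probe sets tested, 51.4% had a positive change in L and 47.5% in H. The 9 genes of the ATG8 family had medians of 0.10 in L and 0.28 in H.

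Little of the neighbouring pathways could be followed. No listed receptor of selective autophagy had a probe set named. Of the vacuolar processing enzymes, GAMMA-VPE and BETA-VPE passed the filter, and neither was called in any contrast. GAMMA-VPE, the vacuolar cysteine protease of vegetative tissue, read 310, 485 and 306 in ape2 H, against 311, 188 and 238 in Ws-2 H. These groups overlapped, and GAMMA-VPE was highest on ape2 H 2, as APG8H was, with r = 0.93 between the pair over the 12 arrays. RAPTOR1A and RAPTOR1B, subunits of the TOR kinase complex that restrains autophagy, were not called in any contrast.

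SAG29, a sucrose transporter gene known to be induced in leaf senescence, was the only called gene of the other lists. It read 28.8, 56.1 and 71.0 in ape2 H against 90.2, 82.5 and 116 in Ws-2 H, and 6.45, 7.87 and 1.51 in ape2 L against 20.6, 25.6 and 20.8 in Ws-2 L. The genotypes did not overlap in either condition, and all ape2 L signals were dim. SAG29 was lower in ape2 in both conditions, by log2 changes of -0.83 in H (limma adjusted p = 0.0339) and -1.10 in L (limma adjusted p = 0.00709). The call in H was lost without any one of ape2 H 1 (-0.53, adjusted p = 0.136), ape2 H 2 (-0.91, 0.0518), Ws-2 H 1 (-0.87, 0.0675) and Ws-2 H 3 (-0.70, 0.148). SAG29 was higher in H than in L by 1.98 in ape2 and 1.71 in Ws-2 (limma adjusted p = 1.99e-04 in ape2 and 8.35e-04 in Ws-2), while ATG8E was lower in H in Ws-2. Sizes that use the ape2 L signals rest on the offset. With 1 the genotype change in L was -2.08 and the change between conditions in ape2 was 3.17, with 32 they were -0.55 and 1.14, and each was still called. WRKY53, the other senescence gene measured, was not called in any contrast.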

How the data were processed

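The authors deposited linear signal intensity values and used MAS5 for them, per the submitters' processing notes. Not given in the sources used here are its version, its detection calls and how the arrays were scanned. The mismatch correction of MAS5 makes dim signals noisy, and a probe set can report related transcripts of a family together.

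The table holds 22810 probe sets. The 64 controls were left out, arrays were brought back to a trimmed mean of 100, and 16124 probe sets passed the filter while 6622 did not. Gene names came from the platform annotation, updated through RefSeq for 13436 of 13513 probe sets with 1 gene. Values were tested as log2(signal + 10) with limma 3.58.1 in R 4.3.3, with 4 group means, a prior variance that follows the intensity and is robust to outlying genes, and two-sided p-values adjusted by the Benjamini-Hochberg method. The pair tests are exact permutation tests.

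The labels do not say that replicates came from separate plants, so p-values speak of the spread between these samples only, and that spread may be technical. With 3 arrays a group, precision is limited. Members, lists and contrasts were chosen with earlier results of these data known. The named genes are ATG8E, ATG8F and ATG8H on every array, every measured autophagy gene, called members of the other lists, and the 5 genes most like each ATG8 gene, of which 5 are named for ATG8E, ATG8F and ATG8H and the first for the others. The other family members, GAMMA-VPE and uncalled genes were added after values were seen. Alternatives were other offsets and filters, quantile normalization, the deposited scaling, array weights, a constant prior, a replicate block, a fit to only the groups compared, and arrays left out.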

Additional observations from a re-analysis of the deposited data

How the results depend on the processing

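For the 9 genes of the family, 1021 values were computed under the alternatives, of which 1000 stayed on their side of the threshold, 21 did not, and 0 changed direction as a called value. ATG8E and ATG8F kept their genotype calls in both conditions in every alternative run. The call of ATG8H in H was lost with no filter (0.50, adjusted p = 0.0665), quantile normalization (0.51, adjusted p = 0.0632) and only the groups compared (0.50, adjusted p = 0.0547). It was also lost without the 3 arrays at the positive end of the within-group component (0.46, adjusted p = 0.209). Leaving out these 3 arrays was a choice made after seeing the data. Leaving out single arrays gave 0.43 to 0.59, and with the filter at 50 the gene was not tested. The change of ATG8E between H and L in Ws-2 lost its call with only the groups compared (-0.61, adjusted p = 0.0528) and lay between -0.66 and -0.56 without single arrays. Offsets of 1 and 32 moved the sizes of dim genes most, as given above for ATG8E, ATG8H and SAG29. The difference between ATG8F and ATG8H was past the threshold at an offset of 32 (0.26). APG8H lost its call in H with no filter (adjusted p = 0.0673), a constant prior (0.0874) and only the groups compared (0.0677), and ATG8D gained one with array weights (adjusted p = 0.045). SAG29 lost its genotype call in H with an offset of 1 (-0.96), no filter, a constant prior (both -0.83), only the groups compared (-0.83) and without the 3 arrays (-0.95), at adjusted p-values of 0.0612 to 0.180. The cause was not tested.

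The number of called probe sets was 1693 between genotypes in H (1098 to 1847 without single arrays) and 1572 in L (1031 to 1604). Between conditions it was 647 in ape2 (366 to 672, 400 with a constant prior, 395 with only the groups compared) and 473 in Ws-2 (264 to 505, 304 with a constant prior). For the interaction it was 3 (0 to 7, 10 with array weights, 14 without the 3 arrays, 0 in limma with a constant prior, where 1197 had an unadjusted p under 0.05). The labels do not say whether same-numbered arrays belong together. Of 18 same-numbered pairs, 3 had a correlation of deviations over 0.1, in a range from -0.28 to 0.37. All 3 joined the H and L arrays of the same genotype, at 0.13 and 0.37 in ape2 and 0.12 in Ws-2. A replicate block takes a number as shared by both genotypes, so pairing within a genotype was not tested. With the number as a replicate block no call of an ATG8 gene changed (ATG8H in H 0.50, adjusted p = 0.0432), and 1588 probe sets were called in H and 1476 in L. Signals near 20, as for ATG8E in Ws-2 H and ATG8H, limit how well a fold can be measured.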
